A study of Mus musculus with 24 samples.

Results

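The genes described here are 33 enzymes and regulators of cholesterol and fatty acid synthesis, chosen by symbol for their place in the pathway, and all 33 were among the 12091 genes of the deposited table. Bulk RNA of mouse breast cancer models was sequenced with and without inhibition of pleiotrophin (PTN), a secreted growth factor and cytokine that binds heparin. The 24 samples form 4 experiments, each with 3 control and 3 PTN-inhibited samples, and the comparisons ask how inhibition of PTN, or descent from a lung metastasis, goes with the RNA level of each gene of the set.

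2 experiments used cultured cells of C57BL/6 origin. E0771 is a mouse mammary carcinoma line, and E0771-LG was derived from a lung metastasis of E0771. Each line was infected with a lentiviral shRNA vector against *Ptn* (shPTN) or with the pLKO.1 vector carrying a sequence that targets EGFP (shCtrl), and all cells were then held in puromycin for 6 wk. Each cell group is therefore a selected population, and a single shRNA construct stands for the knockdown. Cells were grown in DMEM with 10% fetal bovine serum, which itself supplies cholesterol and fatty acids. The other 2 experiments used tumors of mice given the control antibody C44 or 3B10, an antibody against PTN dosed at 15 mg/kg on 2 days a week. 4T1 tumors grew from cells implanted in BALB/c mice that were 8 wk old, with treatment from the time tumors were palpable. The other tumors arose in FVB/N mice carrying *MMTV-PyMT*, in which the mouse mammary tumor virus promoter drives the polyoma middle T oncogene in mammary epithelium, and these mice were treated between 8 and 12 wk of age.

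The values of the 12 cell samples and the 6 *MMTV-PyMT* tumors are log2 CPM (reads of a gene scaled to all reads of the sample), made with an offset of 0.5 reads, from 15.6 M to 21.1 M reads on genes per sample. Those of the 4T1 tumors lie on another scale, whose difference from the E0771-LG shCtrl values fell with log2 exon length (slope −1.21 for the C44 group, against 0.0387 for the *MMTV-PyMT* C44 group). They were treated as normalized for gene length, their depth is unknown, and they are compared only with each other. A gene is called higher or lower where the p-value of limma, adjusted by the Benjamini-Hochberg method over all genes tested, was under 0.05. All 33 genes passed the filter on low values in every comparison.

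As background, cells build cholesterol from acetyl-CoA through the mevalonate pathway and a long series of steps on the sterol ring, and build fatty acids from the same acetyl-CoA through malonyl-CoA. Most of these enzymes are under the SREBP transcription factors, which SCAP escorts out of the endoplasmic reticulum when sterols are scarce and which INSIG proteins hold back when sterols are plentiful. SREBP-2 acts mainly on cholesterol genes and SREBP-1 mainly on fatty acid genes, and the lactating mammary gland is a tissue with very high fatty acid synthesis.

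Levels differed widely among the genes of the set. Per kilobase of exons, *Scd2*, a stearoyl-CoA desaturase, was the most abundant in E0771 shCtrl cells, with a mean log2 CPM per kilobase of 8.14 ± 0.0215 (SD, n = 3). In E0771-LG shCtrl cells *Scd2* (7.05 ± 0.548) and *Fasn*, the fatty acid synthase (7.01 ± 0.213), had the highest levels, and these 2 did not differ beyond their spread. In *MMTV-PyMT* tumors under C44 *Srebf1*, which encodes SREBP-1, came first at 8.55 ± 0.174, ahead of *Scd1* at 7.90 ± 0.107 and *Scd2* at 7.80 ± 0.334, the last 2 of which lay within their spread of each other. *Fdps*, *Tm7sf2* and *Acss2* were the 3 lowest in each of these groups. The length used joins all exons of a gene, 10163 bases for *Acss2* against 3609 in its longest transcript, so its rank may depend on it. *Fdps*, the farnesyl diphosphate synthase, had only 21 to 116 reads in the 18 samples whose reads could be recovered. It shares 1124 exon bases with *Gm43738* on the same strand, so its level depends on how reads were assigned, and it is reported as uncertain.

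The targeted gene was checked first. *Ptn* measured 2.90, 2.18 and 2.28 log2 CPM in the E0771 shCtrl samples and −0.63, 0.25 and 0.53 in the shPTN samples. In E0771-LG it measured 3.65, 4.51 and 3.74 with shCtrl and 1.42, 0.98 and 1.38 with shPTN. The shPTN samples were below their controls in both lines without overlap. *Ptn* fell by 2.40 on the log2 scale in E0771 (SE 0.37, adjusted p = 0.00159) and by 2.71 in E0771-LG (SE 0.28, adjusted p = 6.3e-05), and in the shCtrl cells it was higher in E0771-LG than in E0771 by 1.51 (SE 0.28, adjusted p = 0.0012).

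In E0771 cells the set leaned upward with shPTN: 14 of 33 genes were called higher and 2 lower. Over all 10394 genes tested, 20.6% were called, 8.89% higher and 11.7% lower, against 48.5% of the set. The median log2 fold change of the set was 0.27, and that of all genes −0.03. The groups did not overlap for 21 genes of the set that were higher and 3 that were lower. With 3 samples against 3 this is common, and 39.4% of all genes tested had groups apart. In bulk RNA, fewer cells of a type and less RNA per cell cannot be told apart, and this holds for every difference given here. The heat map of all 33 genes shows the comparisons side by side.

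**Figure D1:**
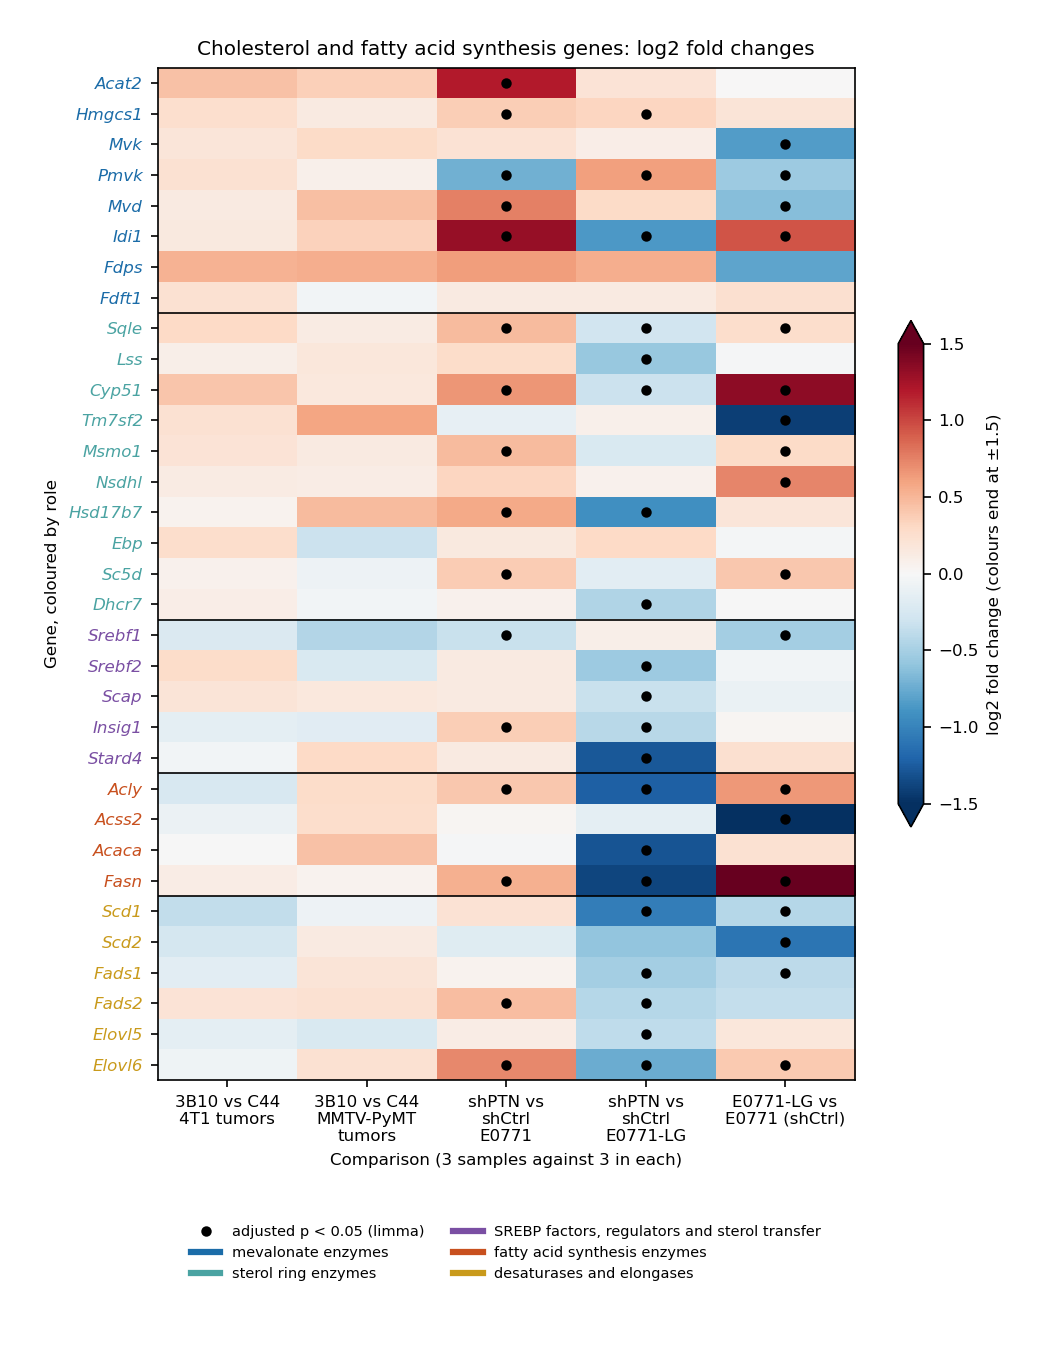
Log2 fold change of each of the 33 genes (vertical axis, coloured by role) in 5 comparisons of 3 samples against 3 (horizontal axis); red is higher and blue lower in the first-named group, colours end at ±1.5, and black dots mark an adjusted p under 0.05. The column for shPTN in E0771 is mostly red, with 14 genes called higher and 2 lower, and the next column, for E0771-LG, mostly blue, with 2 higher and 18 lower, while neither tumor column holds a dot.

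Among the 8 mevalonate enzymes 4 were higher and 1 lower in E0771 with shPTN, with a median of 0.50. *Idi1* (ENSMUSG00000058258, chromosome 13, 8885501 to 8892451 in GRCm38), the isopentenyl diphosphate isomerase, measured 5.34, 5.11 and 4.87 log2 CPM with shCtrl and 6.27, 6.56 and 6.42 with shPTN. Every shPTN sample was above every control. The rise was 2.48-fold (log2 1.31, SE 0.13, adjusted p = 0.00014). *Idi1* shares 323 exon bases with *Gm48574* on the opposite strand, and the processed pseudogene *Gm13502* matches 22.6% of its transcript. Part of its count is therefore uncertain. *Acat2* (ENSMUSG00000023832), the cytosolic thiolase that joins acetyl-CoA units at the start of the pathway, measured 5.76, 5.31 and 5.36 with shCtrl and 6.58, 6.79 and 6.64 with shPTN. Its groups were likewise apart, and the gene rose by 1.19 (SE 0.13, adjusted p = 0.000194). The neighbouring gene *Acat3*, which is not in the table, matches 65.6% of the *Acat2* transcript, so reads of both could have been counted together or dropped. *Mvd*, the diphosphomevalonate decarboxylase, went from 5.35, 4.98 and 5.07 to 5.74, 6.10 and 5.81, groups that do not overlap. It rose by log2 0.76 (SE 0.13, adjusted p = 0.00325). *Hmgcs1*, the synthase that makes HMG-CoA, rose by 0.37 (adjusted p = 0.0234). *Pmvk*, the phosphomevalonate kinase that works one step before *Mvd*, went the other way, from 5.48, 5.23 and 5.79 to 5.01, 4.73 and 4.60. All 3 shPTN values lay below the controls, and *Pmvk* fell by 0.72 on the log2 scale (SE 0.16, adjusted p = 0.00939).

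Of the 10 enzymes that work on squalene and the sterol ring, 5 were higher and none lower in E0771 with shPTN (median 0.35). *Cyp51*, the lanosterol demethylase, led them in size at 0.67 (SE 0.13, adjusted p = 0.00587). *Hsd17b7*, *Msmo1*, *Sqle* and *Sc5d* rose by 0.57, 0.48, 0.48 and 0.38. *Nsdhl* was just outside the threshold at 0.32 (adjusted p = 0.0558) and was called under 4 other settings, among them median-of-ratios scaling (adjusted p = 0.0478), and without shPTN replicate 1 (adjusted p = 0.0348).

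Among the regulators the directions were mixed in E0771. *Srebf1* measured 8.02, 8.18 and 8.19 with shCtrl and 7.89, 7.60 and 7.88 with shPTN. The 2 groups did not overlap, and *Srebf1* fell by 0.34 on the log2 scale (SE 0.10, adjusted p = 0.0339). *Srebf2*, the gene of SREBP-2, measured 8.76, 8.88 and 8.84 against 8.90, 9.03 and 8.96, a difference of 0.14 (SE 0.08, adjusted p = 0.252) that did not pass the test although the groups were apart. *Insig1*, itself a well-known SREBP target, measured 7.03, 6.83 and 6.82 with shCtrl and 7.25, 7.31 and 7.24 with shPTN. It rose by 0.37 (SE 0.09, adjusted p = 0.0119). *Scap* and *Stard4*, which encodes a sterol carrier of the cytosol, were not called, at 0.13 and 0.14.

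Of the 4 fatty acid synthesis enzymes 2 were called higher in E0771. *Fasn* (ENSMUSG00000025153, chromosome 11, 120805846 to 120824547) measured 9.12, 8.68 and 8.93 log2 CPM with shCtrl and 9.14, 9.72 and 9.47 with shPTN, so the lowest shPTN sample was only just above the highest control. It rose by 0.53 (SE 0.15, adjusted p = 0.0316). *Acly*, the ATP citrate lyase that yields cytosolic acetyl-CoA, rose by 0.40 (adjusted p = 0.0152). *Acaca*, the acetyl-CoA carboxylase that makes malonyl-CoA, and *Acss2*, which makes acetyl-CoA from acetate, stayed at −0.01 and 0.02 without a call. Of the 6 desaturases and elongases, *Elovl6* and *Fads2* were higher. *Elovl6*, which lengthens palmitate, measured 7.03, 6.74 and 6.72 with shCtrl and 7.36, 7.68 and 7.59 with shPTN, groups well apart, and it rose by 0.72 (SE 0.11, adjusted p = 0.00174). *Scd1* measured 8.38, 8.44 and 8.40 against 8.53, 8.62 and 8.72, a difference of 0.22 (SE 0.08, adjusted p = 0.0813) that was called without shPTN replicate 1 (adjusted p = 0.0409) or with the trend on exon length removed (0.0369). *Scd2* measured 10.61, 10.57 and 10.60 against 10.40, 10.30 and 10.53, with all 3 shPTN samples lower by a mean of −0.18 (SE 0.08, adjusted p = 0.155).

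The number of calls in E0771 leaned on single samples. Without shCtrl replicate 2 there were 10 calls (9 higher), and without shCtrl replicate 3 there were 9 (8 higher), where the share of all genes called also dropped, to 12.2% and 11.2%. *Hmgcs1* lost its call without any of shCtrl replicates 2 and 3 and shPTN replicates 2 and 3 (adjusted p = 0.0591, 0.118, 0.0535 and 0.0822). *Fasn* lost it without the same 4 samples (0.118, 0.0832, 0.0593 and 0.0947), and so did *Srebf1* (0.114, 0.134, 0.0667 and 0.0688). *Fasn* was also not called without the filter (0.0707) or with the replicate block (0.0901), nor *Srebf1* without the filter (0.0623) or in the fit of the 12 cell samples (0.0682). *Hsd17b7* was no longer called without shCtrl replicate 1 or 3 or shPTN replicate 3 (0.0519, 0.0794 and 0.0645). Without shCtrl replicates 2 and 3 in turn, the adjusted p was 0.0517 and 0.0592 for *Sc5d*, 0.0524 and 0.0693 for *Insig1*, and 0.0563 and 0.0693 for *Acly*. The calls of *Idi1*, *Acat2*, *Elovl6*, *Mvd*, *Sqle*, *Cyp51*, *Msmo1*, *Fads2* and *Pmvk* held under every alternative tried.

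**Figure D2:**
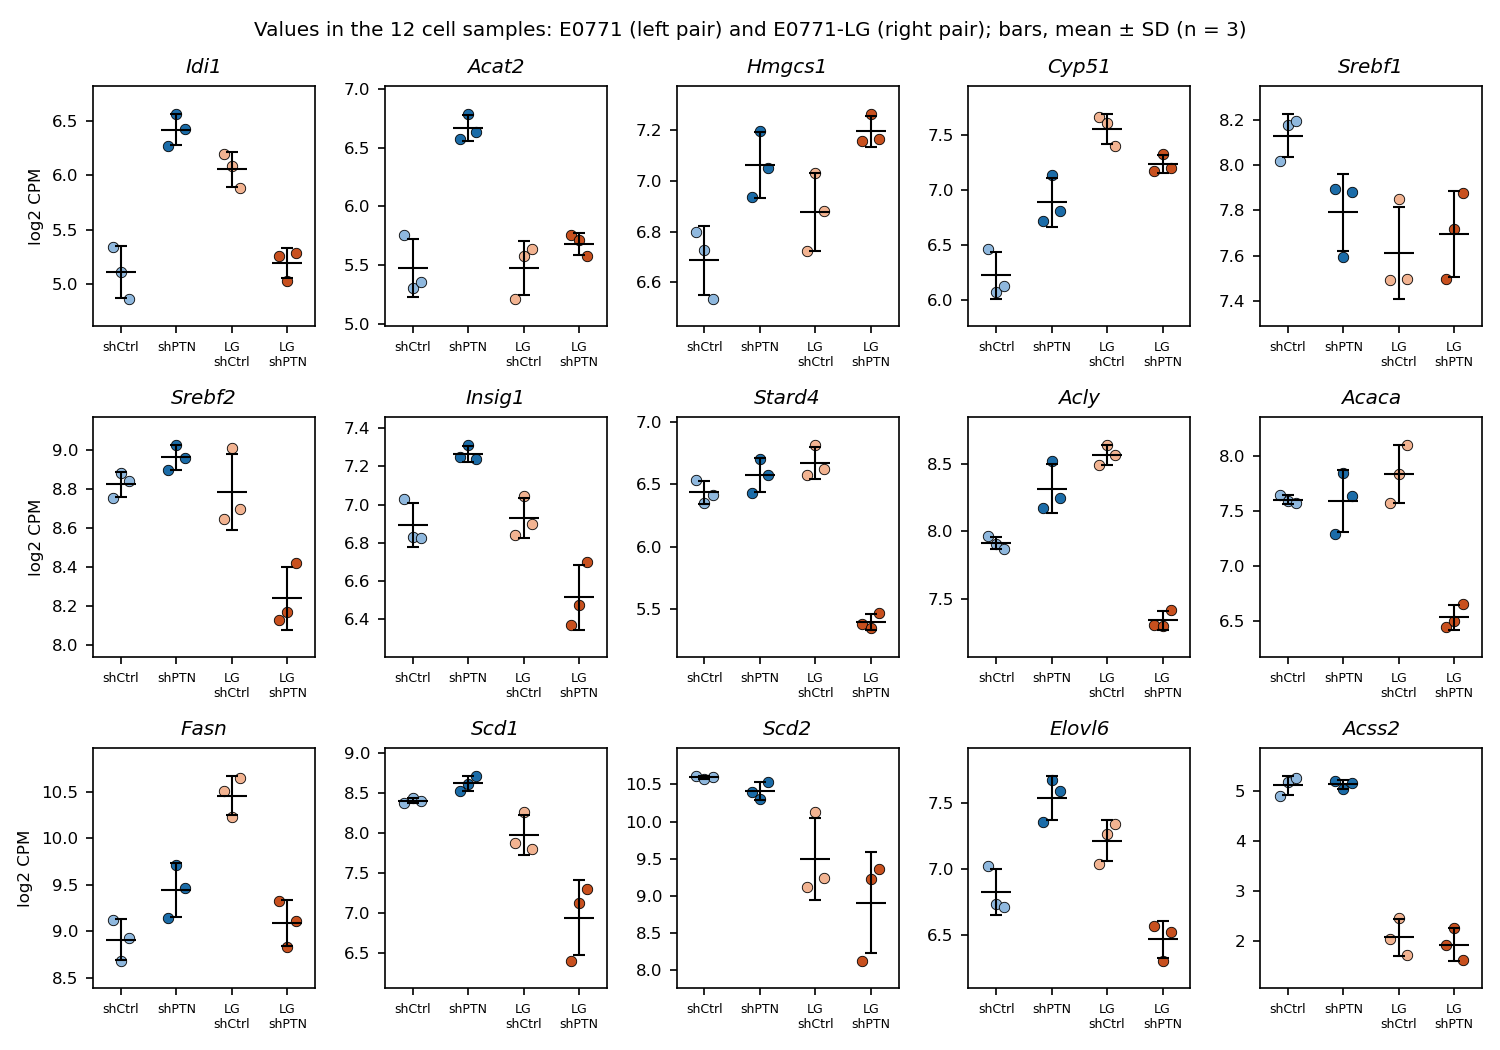
Log2 CPM (vertical axes) of 15 genes in the 12 cell samples, with E0771 shCtrl and shPTN in blue and E0771-LG shCtrl and shPTN in orange (horizontal axes); points are samples and bars are the mean ± SD of 3. *Idi1* lies between 4.87 and 5.34 in E0771 shCtrl and between 6.27 and 6.56 in E0771 shPTN, while *Acly* drops from 8.49 to 8.64 in E0771-LG shCtrl to 7.30 to 7.42 in E0771-LG shPTN.

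In E0771-LG cells the set leaned downward with the same shRNA: 18 of 33 genes were called lower and 2 higher. Over all 10405 genes tested, 46.4% were called, 24.3% higher and 22.1% lower, against 60.6% of the set. The set had a median log2 fold change of −0.33, and all genes one of 0.05. Groups were apart for 1 gene of the set that was higher and 19 that were lower, where 57.1% of all genes tested were apart. The medians by role that follow are not adjusted for exon length, which is taken up below. By role, the fatty acid synthesis enzymes had the lowest median, −1.26, with 3 of 4 lower. The desaturases and elongases followed at −0.55, with 5 of 6 lower, then the regulators at −0.41, with 4 of 5 lower, and the sterol ring enzymes at −0.26, with 5 of 10 lower. The mevalonate enzymes had a median of 0.24, with 2 higher and 1 lower of 8.

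*Acly* (ENSMUSG00000020917, chromosome 11, 100476353 to 100528000) measured 8.49, 8.64 and 8.57 in E0771-LG shCtrl and 7.30, 7.30 and 7.42 in shPTN. The 2 groups were separated by more than 1 log2 unit. *Acly* fell by 1.23 on the log2 scale (SE 0.09, adjusted p = 1.55e-05). *Acaca* (ENSMUSG00000020532) measured 7.57, 7.83 and 8.10 with shCtrl and 6.45, 6.50 and 6.66 with shPTN, also without overlap. It fell by 1.30 (SE 0.13, adjusted p = 6.44e-05), and the processed pseudogene *Gm5182*, not in the table, matches 64.3% of its transcript, so part of its count is uncertain. *Fasn* measured 10.51, 10.23 and 10.64 with shCtrl and 9.32, 8.83 and 9.11 with shPTN. All 3 shPTN samples were at or near the level of E0771 shCtrl cells, and *Fasn* fell by 1.37 (SE 0.14, adjusted p = 0.000105). *Acss2* was low in this line under either vector, at 2.05, 2.46 and 1.73 against 1.91, 2.26 and 1.62 from 53 to 107 reads, and was not called (−0.15, adjusted p = 0.709).

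Among the regulators of E0771-LG, *Stard4* had the largest drop. It measured 6.57, 6.82 and 6.62 with shCtrl and 5.38, 5.35 and 5.47 with shPTN, with no overlap, and fell by 1.27 (SE 0.11, adjusted p = 2.52e-05). *Srebf2* measured 8.65, 9.01 and 8.70 against 8.13, 8.17 and 8.42. Here the groups were apart and *Srebf2* fell by 0.55 (SE 0.12, adjusted p = 0.00373). *Insig1* measured 6.84, 7.04 and 6.90 against 6.37, 6.48 and 6.70 and fell by 0.41 (SE 0.11, adjusted p = 0.0118), a call lost without shPTN replicate 2 (adjusted p = 0.0545). *Scap* fell by 0.33 (adjusted p = 0.0228) and was not called without shPTN replicate 2 or 3 (0.0856 and 0.0756) or after quantile normalization (0.0678). *Srebf1* measured 7.49, 7.85 and 7.50 with shCtrl and 7.50, 7.72 and 7.88 with shPTN, overlapping groups with a difference of 0.08 (SE 0.13, adjusted p = 0.62).

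*Scd1* (ENSMUSG00000037071, chromosome 19, 44394455 to 44407879), the desaturase that makes oleate, measured 7.88, 8.27 and 7.80 in E0771-LG shCtrl and 6.41, 7.13 and 7.30 in shPTN. The groups did not overlap, although the shPTN samples spread over nearly 1 log2 unit. *Scd1* fell by 1.04 (SE 0.25, adjusted p = 0.0129), and the adjusted p was 0.0555 without shCtrl replicate 1. *Scd2*, its neighbour on the chromosome, measured 9.12, 10.13 and 9.25 with shCtrl and 8.13, 9.23 and 9.37 with shPTN. These groups overlapped, with one high shCtrl and one low shPTN sample, and the difference of −0.59 (SE 0.42, adjusted p = 0.297) was not called. *Elovl6* fell by 0.75 (adjusted p = 0.000512) and *Fads1*, a desaturase of polyunsaturated fatty acids, by 0.51 (adjusted p = 0.00409). *Elovl5* fell by 0.38 (adjusted p = 0.0158), but not past the threshold without shPTN replicate 1 or 2 (0.0661 and 0.0627). *Fads2* was at −0.43 with an adjusted p of 0.0491, which rose to 0.153 without shCtrl replicate 2, to 0.16, 0.115 and 0.0569 without shPTN replicates 1, 2 and 3, and to 0.0551 without the robust option.

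The cholesterol enzymes of E0771-LG were split. *Idi1* measured 6.20, 6.08 and 5.88 with shCtrl and 5.26, 5.03 and 5.28 with shPTN, apart from each other, and fell by 0.86 (SE 0.12, adjusted p = 0.000365). *Hsd17b7* fell by 0.92 (SE 0.17, adjusted p = 0.00139) and *Lss*, the lanosterol synthase, by 0.57 (SE 0.13, adjusted p = 0.00547). *Sqle*, *Cyp51* and *Dhcr7* were called lower at −0.29, −0.32 and −0.45, each near the threshold. *Sqle* lost the call without shCtrl replicate 2 or any shPTN replicate (adjusted p = 0.071, 0.0504, 0.0756 and 0.0763), *Cyp51* without shPTN replicate 1 or 3 (0.0732 and 0.0855), and *Dhcr7* without shCtrl replicate 1 or 2 or shPTN replicate 1 (0.0576, 0.0509 and 0.0867). *Hmgcs1* measured 6.72, 7.03 and 6.88 with shCtrl and 7.16, 7.27 and 7.17 with shPTN. Its shPTN samples were all higher, by a mean of 0.32 (SE 0.10, adjusted p = 0.0278), and the call was lost without shCtrl replicate 3 or any shPTN replicate (0.0735, 0.0519, 0.113 and 0.0717). *Pmvk* measured 4.61, 5.33 and 4.92 against 5.26, 5.95 and 5.52, groups that overlap by a single sample. It was called higher at 0.62 (SE 0.21, adjusted p = 0.0402), though not without shCtrl replicate 1 or 3 or shPTN replicate 2 or 3 (0.0939, 0.109, 0.14 and 0.0857).

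Over all genes tested in E0771-LG the log2 fold change with shPTN fell with exon length, with a slope of −0.218 per log2 unit of length, against −0.0214 in E0771. *Acaca* and *Fasn*, with 17074 and 10947 exon bases, are long beside the median of 4617, while the median of the set was 4866. The 4 fatty acid synthesis enzymes, at 5279 to 17074 exon bases, were all longer than the median of all genes. The 8 mevalonate enzymes, at 1713 to 4594, were all shorter. The contrast between these roles therefore goes along with exon length, and medians by role were not taken with the trend removed. With the trend on length removed from each sample, an alternative chosen after this slope was seen, 14 of the set were lower and 1 higher (40% of all genes called), with a median of −0.29. *Acaca* was then at −0.88 (adjusted p = 0.000383), *Fasn* at −1.09 (0.000257), *Acly* at −1.175 (2.99e-05) and *Stard4* at −1.20 (6.27e-05). The calls of *Pmvk* (0.252), *Scap* (0.222), *Lss* (0.0835), *Dhcr7* (0.0706) and *Sqle* (0.0661) were lost. Whether the trend is of the cells or of the libraries was not tested.

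Quantile normalization gave 15 calls of 33 in E0771-LG, close to the share over all genes (45.3% called), though 13 were lower, against 22.2% of all genes. It ended the calls of *Cyp51* (adjusted p = 0.0841), *Sqle* (0.0959), *Elovl5* (0.0509), *Fads2* (0.0659) and *Scap*. Without the filter the calls of *Pmvk* (0.0735), *Dhcr7* (0.0587) and *Fads2* (0.0959) were lost. Without shPTN replicate 2 the number of calls in E0771-LG was 13, all of them lower, when 31.1% of all genes were called. None of the set was called higher without shCtrl replicate 3 or shPTN replicate 3 either, where 18.7% and 17.7% of all genes were. Without shPTN replicate 1, 1 of the set was called higher, against 21% of all genes. The calls of *Acly*, *Stard4*, *Acaca*, *Fasn*, *Idi1*, *Elovl6*, *Hsd17b7*, *Srebf2* and *Fads1* held under every alternative tried.

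**Figure D3:**
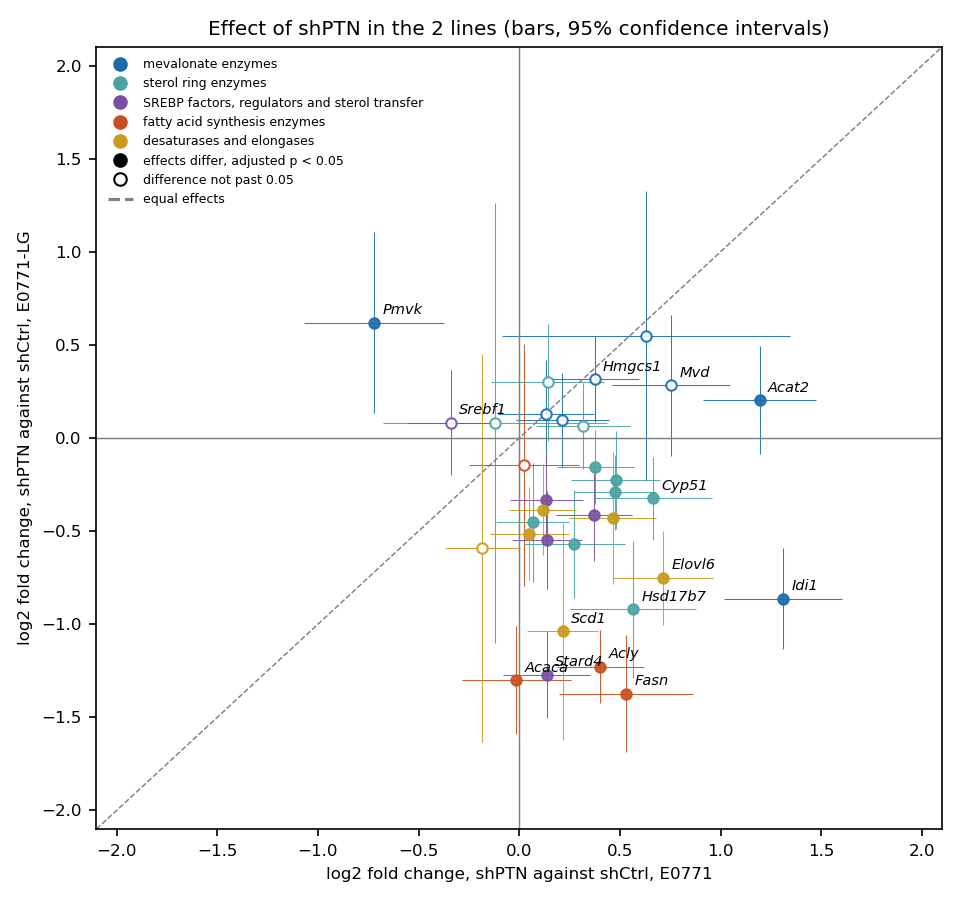
Log2 fold change of shPTN against shCtrl in E0771 (horizontal axis) and in E0771-LG (vertical axis) for the 33 genes, coloured by role, with 95% confidence intervals; filled points differ between the lines at an adjusted p under 0.05 and the dashed line marks equal effects. Of the 22 filled points, 21 lie below the dashed line, with *Idi1* at 1.31 in E0771 and −0.86 in E0771-LG, and *Pmvk* alone lies above it.

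The difference between the lines was itself tested, as the effect of shPTN in E0771-LG minus that in E0771 in one fit of the 12 cell samples. These 2 effects share no samples. The difference was called for 22 of 33 genes, 21 of them negative, or 66.7% of the set. Of all 10600 genes tested, 34% were called, 18.3% positive and 15.7% negative. The median difference was −0.56 over the set and 0.08 over all genes. *Acly* (−1.63, SE 0.13, adjusted p = 2.64e-06), *Idi1* (−2.17, SE 0.19, adjusted p = 4.96e-06), *Stard4* (−1.41, SE 0.14, adjusted p = 1.64e-05) and *Elovl6* (−1.46, SE 0.17, adjusted p = 3.6e-05) had the smallest p-values. *Idi1*, *Elovl6*, *Hsd17b7*, *Acly*, *Fasn*, *Cyp51*, *Sqle*, *Fads2* and *Insig1* were called higher in E0771 and lower in E0771-LG. *Pmvk* was lower in E0771, higher in E0771-LG, and differed by 1.34 (SE 0.29, adjusted p = 0.00383).

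By role, the difference was called negative for 7 of 10 sterol ring enzymes, 4 of 5 regulators, 3 of 4 fatty acid synthesis enzymes, 5 of 6 desaturases and elongases, and 2 of 8 mevalonate enzymes. *Hmgcs1*, higher with shPTN in both lines, differed between them by −0.06 (SE 0.15, 95% confidence interval −0.37 to 0.25), and *Fdft1*, the squalene synthase, by −0.00 (−0.37 to 0.36). The count of *Fdft1* is partly uncertain. It shares 774 exon bases with *Ctsb* on the opposite strand, and the processed pseudogene *Gm6781* matches 33.7% of its transcript. *Srebf1* differed by 0.42 (SE 0.17, adjusted p = 0.0701), a value called without E0771-LG shCtrl replicate 2 or shPTN replicate 1 (0.0182 and 0.0328) or after quantile normalization (0.0366). With the trend on exon length removed, 20 differences were negative and 2 positive, *Srebf1* (0.0405) and *Mvd* (0.045) were called, and *Scap* (0.0667) and *Dhcr7* (0.0615) were not. *Dhcr7* was called at −0.52 (adjusted p = 0.0331) and lost that call without 7 of the 12 samples in turn. These were E0771 shCtrl replicates 1 and 3 (0.0622 and 0.0779), E0771 shPTN replicates 2 and 3 (0.0585 and 0.0686), E0771-LG shCtrl replicates 1 and 2 (0.0589 and 0.0528) and E0771-LG shPTN replicate 1 (0.0637). *Mvd* was not called (−0.47, adjusted p = 0.122) except without E0771-LG shCtrl replicate 1 (0.0336), after quantile normalization (0.0367) or with the trend on length removed, as above.

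Between the shCtrl cells, E0771-LG differed from E0771 in both directions, with 9 genes called higher and 9 lower of 33. Over all 10411 genes tested, 54.5% were called, 19.2% higher and 35.3% lower, and 54.5% of the set was called too. Groups were apart for 11 genes of the set that were higher and 8 that were lower, where 63.6% of all genes tested were apart. This comparison shares its samples with the controls of both knockdown comparisons. The median of all genes was −0.15 in it, and that of the set 0.00. Median-of-ratios scaling, which moved the median of all genes to 0.00, gave 14 higher and 6 lower in the set and 2854 higher and 2829 lower among all genes, against 2004 and 3672 with the values as deposited.

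*Fasn* measured 10.51, 10.23 and 10.64 in E0771-LG shCtrl and 9.12, 8.68 and 8.93 in E0771 shCtrl. It was 2.93-fold higher in E0771-LG, with no overlap (log2 1.55, SE 0.14, adjusted p = 1.7e-05). *Acly*, at 8.49, 8.64 and 8.57 against 7.96, 7.91 and 7.87, was higher by 0.65 (SE 0.09, adjusted p = 0.000187). *Acss2* (ENSMUSG00000027605, chromosome 2, 155517948 to 155585724) measured 2.05, 2.46 and 1.73 in E0771-LG and 4.90, 5.19 and 5.27 in E0771, or 61 to 107 reads against 516 to 747. The E0771-LG level was 12.1% of that in E0771 (log2 −3.05, SE 0.21, adjusted p = 4.07e-06). *Acss2* shares 927 exon bases with genes on the opposite strand, among them *Acss2os*, and without strand the reads of both cannot be told apart.

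**Figure D4:**
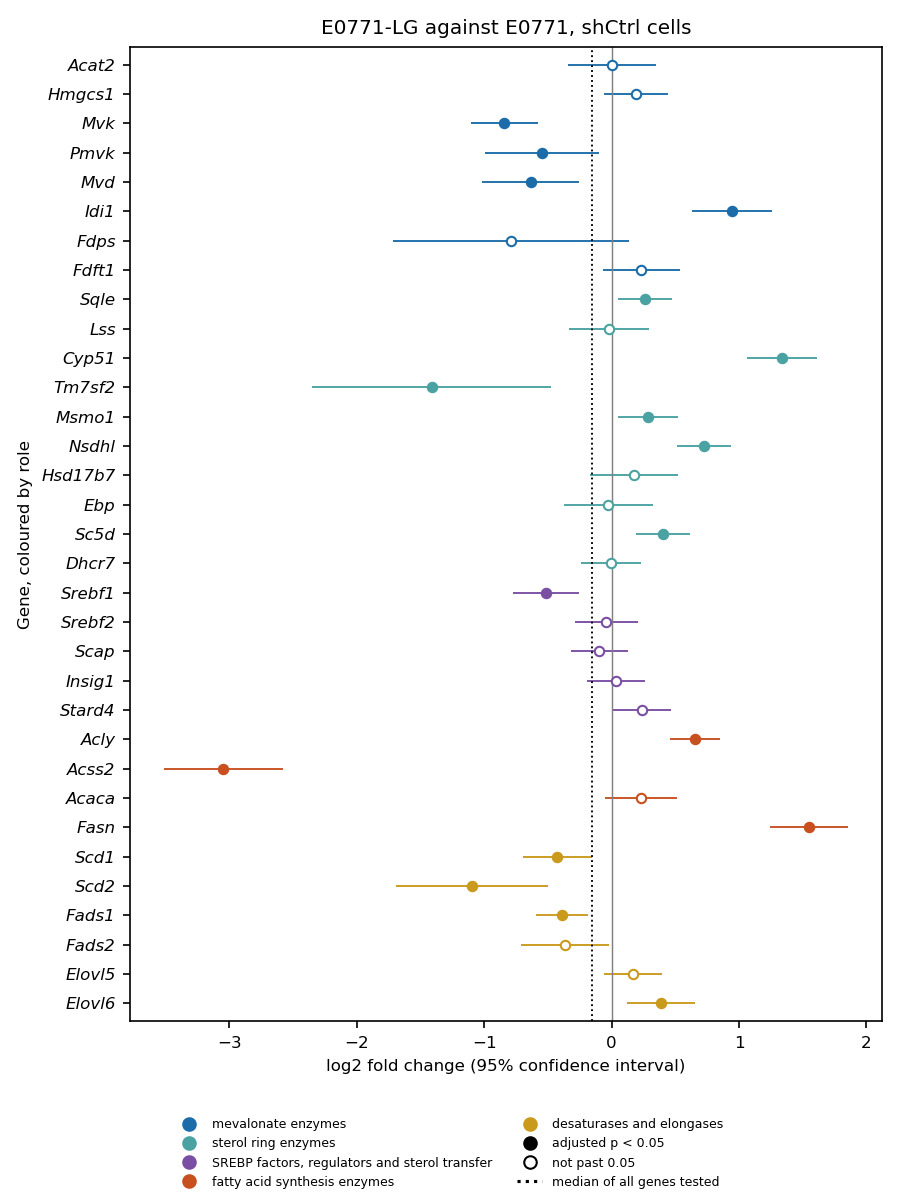
Log2 fold change of E0771-LG shCtrl against E0771 shCtrl cells, 3 samples each (horizontal axis), with 95% confidence intervals, for the 33 genes (vertical axis, coloured by role); filled points have an adjusted p under 0.05 and the dotted line is the median of all genes tested, −0.15. *Fasn* and *Cyp51* stand out to the right at 1.55 and 1.34, and *Acss2* to the left at −3.05.

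Of the sterol ring enzymes, 5 were higher and 1 lower in E0771-LG. *Cyp51* measured 7.66, 7.61 and 7.40 in E0771-LG and 6.46, 6.08 and 6.13 in E0771. The groups were about 1 log2 unit apart at their nearest, and the difference was 1.34 (SE 0.12, adjusted p = 2.03e-05). *Nsdhl*, a sterol dehydrogenase, measured 6.74, 6.87 and 6.73 against 6.07, 6.00 and 6.09, a difference of 0.73 (SE 0.09, adjusted p = 0.000146). *Sc5d* was higher by 0.41 (adjusted p = 0.00496). *Sqle* and *Msmo1* were called at 0.26 and 0.29, near the threshold. *Sqle* lost the call without replicate 2 or 3 of either group (E0771, adjusted p = 0.125 and 0.129, and E0771-LG, 0.111 and 0.0539), and *Msmo1* without any of the E0771 replicates (0.068, 0.117 and 0.105) or without E0771-LG replicate 1 or 2 (0.0811 and 0.0548). *Tm7sf2*, a sterol reductase with 21 to 153 reads in these samples, was lower by −1.41 (adjusted p = 0.017), and not called without E0771 replicate 2 or 3 (0.0684 and 0.0568) or after quantile normalization (0.0965).

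Of the 8 mevalonate enzymes 3 were called lower and 1 higher in E0771-LG, with 4 values above 0 and 4 below it. *Mvk*, the mevalonate kinase, measured 5.07, 4.94 and 4.93 in E0771-LG and 5.89, 5.64 and 5.93 in E0771, groups that do not overlap (−0.84, SE 0.12, adjusted p = 0.000237). *Idi1* was higher by 0.94 (SE 0.14, adjusted p = 0.000362). *Mvd* was lower by −0.63 (adjusted p = 0.0104, and 0.0782 after quantile normalization). *Pmvk* was lower by −0.54 (adjusted p = 0.0414) with overlapping groups, and it was not called without replicate 1 or 3 of either group (E0771, 0.0939 and 0.152, and E0771-LG, 0.102 and 0.0991) or under either other scaling (0.0982 and 0.148) or without the filter (0.0739).

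*Srebf1* measured 7.49, 7.85 and 7.50 in E0771-LG shCtrl and 8.02, 8.18 and 8.19 in E0771 shCtrl. It was the only regulator called, with every E0771-LG sample below every E0771 sample and a mean difference of −0.52 (SE 0.12, adjusted p = 0.00378). *Srebf2* and *Insig1* were close between the lines, at −0.04 (95% confidence interval −0.29 to 0.21) and 0.03 (−0.19 to 0.26). *Fads1* measured 6.96, 7.05 and 6.83 against 7.35, 7.35 and 7.30, without overlap and lower by −0.39 (SE 0.09, adjusted p = 0.00554, and 0.0554 with median-of-ratios scaling). *Scd2*, at 9.12, 10.13 and 9.25 against 10.61, 10.57 and 10.60, was lower by −1.10 (SE 0.25, adjusted p = 0.00919), with E0771-LG replicate 2 nearest to E0771. *Scd1* was lower by −0.42 (adjusted p = 0.014) and not called without E0771 replicate 2 or E0771-LG replicate 3 (0.0512 and 0.0657) or with median-of-ratios scaling (0.0722) or in the fit of the 12 cell samples (0.0691). *Elovl6* was higher by 0.39 (adjusted p = 0.0186), a call lost without E0771 replicate 2 or 3 or E0771-LG replicate 3 (0.0729, 0.086 and 0.0806). *Hmgcs1*, *Stard4*, *Acaca*, *Fdft1*, *Hsd17b7*, *Elovl5* and *Fads2* were not called with the values as deposited and were called under some alternatives, such as *Stard4* with median-of-ratios scaling (adjusted p = 0.00955) and *Acaca* with the trend on exon length removed (adjusted p = 0.0227). Leaving out E0771-LG replicate 1 brought in *Hmgcs1*, *Stard4* and *Acaca* (0.047, 0.0337 and 0.00826), leaving out E0771-LG replicate 2 brought in *Fads2* and *Fdps* (0.00307 and 0.0454), and leaving out E0771 replicate 2 brought in *Fdps* (0.0394).

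RefSeq promoters (GRCm38.p6) were read for a sequence feature that the members might share, since many of them move together in the cells. A promoter entry was found for 26 of the 33 genes, and *Fdps*, *Fdft1*, *Sqle*, *Stard4*, *Scd1*, *Scd2* and *Fads1* are named only. A sterol element spelled TCACNCCAC, or GTGGNGTGA on the other strand, was in the promoters of 388 of 27025 genes with an entry (1.44%; 408 of 32851 promoters, 1.24%) and in that of 1 of the 26, *Hmgcs1*, starting 137 bases before the gene. The CCAAT box, or ATTGG on the other strand, was searched second, after the first result had been seen. It was in 21 of the 26 (80.8%), against 11096 of 27025 genes with an entry (41.1%). The genes with an entry include many that were not measured here, so these shares are not of like genes. Of the genes called lower in E0771-LG with shPTN, 14 had an entry and 10 of those held the box, a smaller share than in the 26. The *Hmgcs1* stretch (chr13:119690154-119690282, plus strand) is shown for its sterol element and carries both motifs. Also shown are *Fasn* (chr11:120824548-120824666, minus strand), *Hsd17b7* (chr1:169969242-169969338, minus), *Lss* (chr10:76531483-76531587, plus) and *Insig1* (chr5:28071162-28071260, plus). These 4 had the smallest adjusted p for the difference between the lines (limma) among genes with a box in an exon-free stretch before the start. Holding the box was thus a condition for being shown, and genes with a smaller adjusted p but no such stretch were passed over. Each is written 5′ to 3′ on the strand of its gene, with capitals for TCACNCCAC, CCAAT and ATTGG. In *Fasn* a CCAAT and an ATTGG overlap in 1 run of capitals. A match describes the letters only and says nothing about binding.
Hmgcs1: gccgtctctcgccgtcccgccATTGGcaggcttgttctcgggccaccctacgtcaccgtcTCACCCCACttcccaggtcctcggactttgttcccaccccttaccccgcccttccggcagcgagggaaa
Fasn: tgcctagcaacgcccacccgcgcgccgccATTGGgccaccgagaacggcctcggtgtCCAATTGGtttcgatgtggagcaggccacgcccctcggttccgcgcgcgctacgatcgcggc
Hsd17b7: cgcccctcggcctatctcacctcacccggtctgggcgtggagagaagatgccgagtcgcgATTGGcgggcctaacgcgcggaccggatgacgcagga
Lss: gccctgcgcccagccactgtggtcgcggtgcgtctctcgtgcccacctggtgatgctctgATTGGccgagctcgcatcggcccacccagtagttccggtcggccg
Insig1: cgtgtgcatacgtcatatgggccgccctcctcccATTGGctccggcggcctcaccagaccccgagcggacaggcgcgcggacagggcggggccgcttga

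Other genes of the pathway, outside the 33, were read as further lists. Among further sterol enzymes, *Lbr* fell in E0771-LG by 0.67 (adjusted p = 0.000482) and *Cyb5r3* rose in both lines, by 0.36 in E0771 (adjusted p = 0.0103) and 0.49 in E0771-LG (adjusted p = 0.00354).

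SREBP processing genes gave 1 higher and 2 lower of 11 in E0771, 2 higher and 4 lower in E0771-LG, and 1 higher and 7 lower between the lines. These are 27.3%, 54.5% and 72.7% of the list, where 20.6%, 46.4% and 54.5% of all genes were called. *Erlin1*, of the complex that degrades sterol-regulated proteins, fell in both lines, by 0.97 (adjusted p = 0.000136) and 1.27 (adjusted p = 5.18e-05). *Insig2*, the second INSIG gene, rose in E0771-LG with shPTN by 0.51 (adjusted p = 0.00775) from a shCtrl level that was lower than that of E0771 by −0.94 (adjusted p = 0.000235).

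The counts of the lists and of markers of the cells below are over genes that passed the filter in each group alone, since a gene that passed through 1 group had to differ, and so are the shares of all genes. Sterol efflux and LXR genes had 0 higher and 2 lower of 6 in E0771, 2 and 2 of 6 in E0771-LG, and 0 and 5 of 6 between the lines, or 33.3%, 66.7% and 83.3% against 20.5%, 46.5% and 53.5% of all genes. *Abca1*, the cholesterol exporter, had 8, 6 and 2 reads in E0771 shCtrl and 21, 21 and 28 with shPTN (2.23, adjusted p = 0.0208). It passed the filter only through shPTN, so the call was favored by the filter, and in E0771-LG it was too low for a test. *Abcg1* was lower in E0771-LG than in E0771 by −1.60 (adjusted p = 0.000151), and *Rxra* fell in E0771-LG by 0.81 with shPTN (adjusted p = 0.000388). The genes of acyl-CoA and glycerolipid synthesis had 2 higher and 3 lower of 20 in E0771 (25%, against 20.5%), 4 and 8 of 20 in E0771-LG (60%, against 46.5%), and 2 and 6 of 20 between the lines (40%, against 53.5%). *Gpam*, the first acyltransferase of glycerolipid synthesis, fell in E0771-LG by 1.67 (adjusted p = 2.3e-05), with a difference between the lines of −1.44 (adjusted p = 2.6e-05). *Dgat2*, at 4.34 between the lines (adjusted p = 0.00147), passed the filter only through E0771-LG shCtrl. The fatty acid oxidation list had 5 of 14 higher and 1 lower in E0771-LG with shPTN, or 42.9% called, against 46.5% of all genes. *Acadl*, the long-chain acyl-CoA dehydrogenase, rose there by 0.89 (adjusted p = 0.0011). In E0771 that list had 2 higher and 3 lower (35.7%, against 20.5% of all genes), among them *Acadl*, which fell by 0.45 (adjusted p = 0.0145). Between the shCtrl lines 9 of the 14 were lower in E0771-LG and none higher (64.3%, against 53.5%). The difference between the shPTN effects was called for 1 higher and 1 lower gene of SREBP processing, 1 and 1 of efflux, 3 and 4 of glycerolipid synthesis, and 7 and 1 of oxidation, or 18.2%, 33.3%, 35% and 57.1% of these lists against 34.8% of all genes.

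Of the 10 mammary epithelial markers *Krt8* was the most abundant in all 12 cell samples, and 2 to 6 of the 10 were at the lowest value of the sample. With shPTN in E0771-LG *Krt8* and *Epcam*, the 2 that passed in each group, were higher, and the summed level of the 10 was 425, 565 and 516 CPM against 158, 204 and 164 with shCtrl. With shPTN in E0771 4 of 4 fibroblast genes were higher, led by *Col3a1* (2.83, adjusted p = 2.02e-06), and the list summed to 331, 293 and 330 CPM against 74.8, 101 and 86.3. Leukocyte markers had 3 of 5 higher, endothelial markers 1 of 2 and epithelial markers 0 of 2 in E0771, where 20.5% of all genes were called. In E0771-LG, with 46.5% of all genes called, leukocyte markers had 1 higher and 1 lower of 4, endothelial markers 1 of 2 higher and fibroblast genes 1 of 3 lower. Of the adipocyte, milk and muscle genes at most 2 of each were tested. None was called in E0771, and in E0771-LG with shPTN *Fabp4* fell by 2.46 (adjusted p = 0.0017) and *Csn3* rose by 2.07 (adjusted p = 0.00038). Between the shCtrl cells 2 of 2 epithelial markers were higher in E0771-LG and 2 of 2 endothelial markers lower, with 2 higher and 1 lower of 4 leukocyte and 2 and 2 of 4 fibroblast markers, led by *Lcp1* (4.61, adjusted p = 3.17e-07), against 53.5% of all genes called. In the same comparison 1 of 2 adipocyte markers was higher in E0771-LG, at 3.24, and the 1 milk gene that passed in each group was lower. The difference between the shPTN effects was called for 3 lower of 3 fibroblast, 1 higher of 2 epithelial, 1 higher of 2 endothelial and 2 lower of 4 leukocyte markers, against 34.8% of all genes. The part of these changes in the lipid genes was not tested.

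In the tumors no gene was called between 3B10 and C44 by limma, neither in the set nor among all genes tested (0 of 11467 in 4T1 and 0 of 11361 in *MMTV-PyMT*, or 0%). The smallest adjusted p over all genes was 0.334 in 4T1. At an unadjusted p under 0.05 there were 719 genes in 4T1 (6.27%) and 307 in *MMTV-PyMT* (2.7%), and 1 gene of the set in each. Fitting the recovered reads with voom weights also called 0 in *MMTV-PyMT*. Values of the set are given below this level of evidence as a description, and the effects in the 2 models were not tested against each other because their scales differ.

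**Figure D5:**
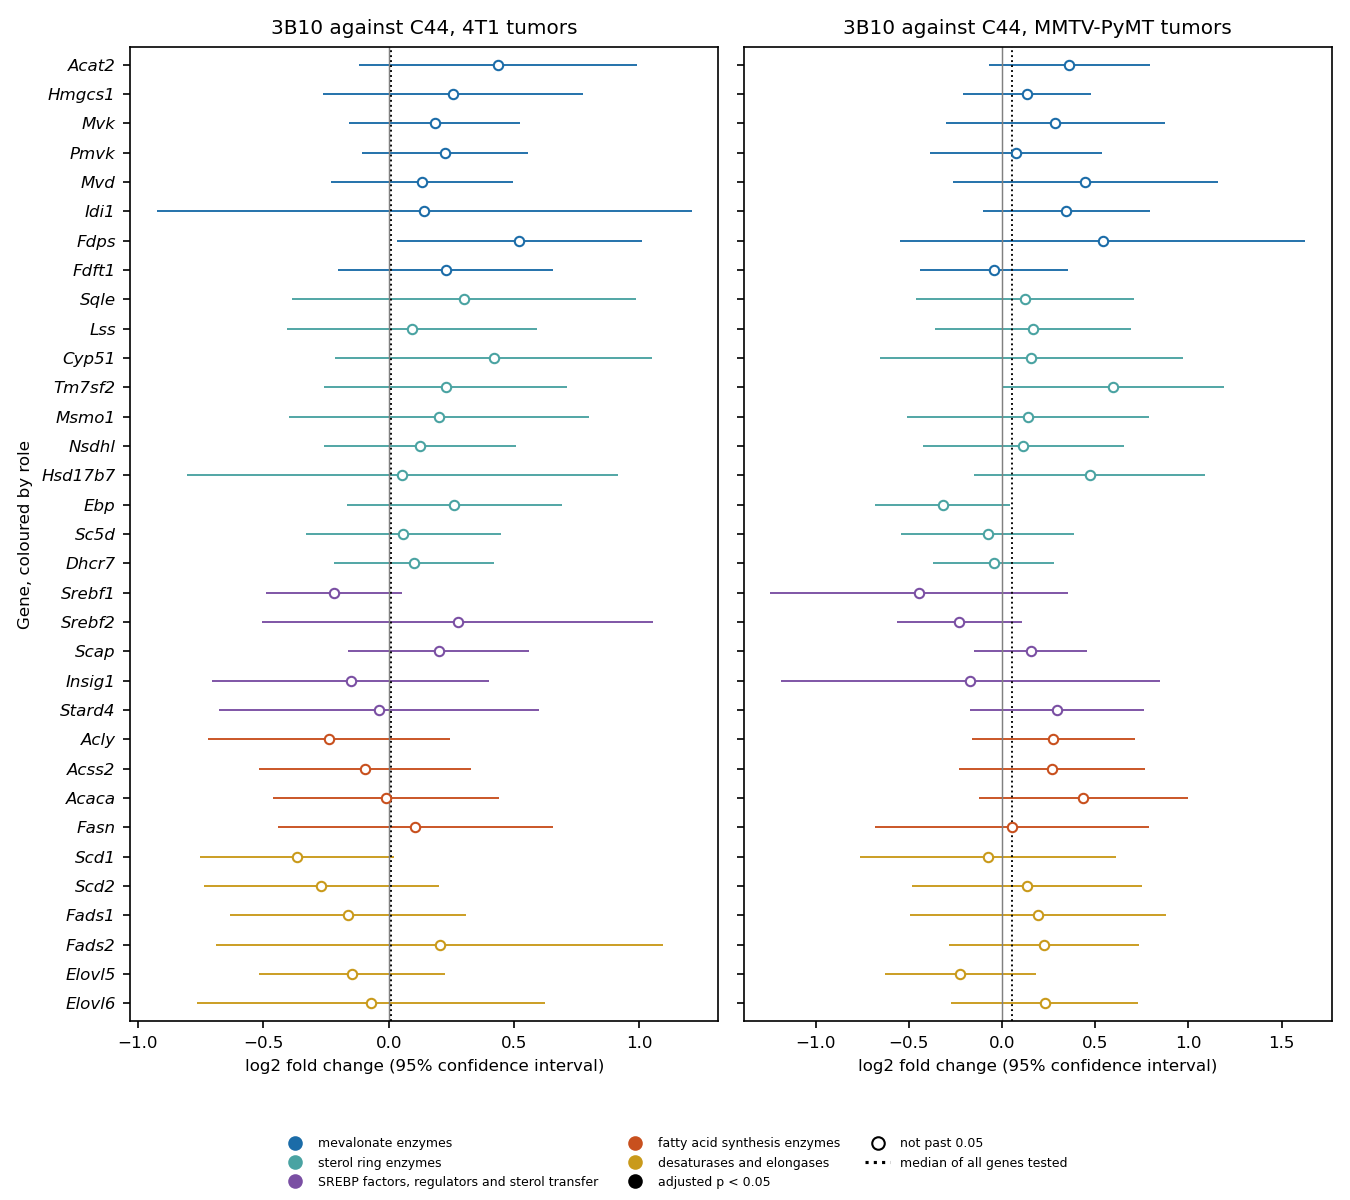
Log2 fold change of 3B10 against C44 in 4T1 tumors (left) and *MMTV-PyMT* tumors (right), 3 against 3 in each (horizontal axes), with 95% confidence intervals, for the 33 genes (vertical axis, coloured by role); open points did not pass an adjusted p of 0.05 and dotted lines are the medians of all genes tested. No point is filled, and nearly all intervals cross 0, *Fdps* in 4T1 and *Tm7sf2* in *MMTV-PyMT* being the exceptions.

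In 4T1 tumors the median of the set was 0.12, and that of all genes 0.01. Leaving out 1 sample at a time gave medians of the set from −0.02 (without C44 replicate 3) to 0.23 (without 3B10 replicate 1), so its sign rested on 1 tumor. With all 6 tumors, all 8 mevalonate enzymes and all 10 sterol ring enzymes had values above 0, with medians of 0.23 and 0.16. Of the desaturases and elongases 5 of 6 were below 0, with a median of −0.15. *Idi1* did not pass the filter in each group alone, as 7 of the 8 mevalonate enzymes did. Not all these signs held under the alternatives: the lowest values of *Idi1*, *Hsd17b7*, *Sc5d*, *Lss* and *Msmo1* were −0.18, −0.27, −0.10, −0.07 and −0.007. *Fdps*, uncertain as said, had the smallest p and measured 7.12, 6.72 and 6.72 with C44 and 6.94, 7.54 and 7.64 with 3B10, overlapping groups (0.52, SE 0.21, unadjusted p = 0.0396 and adjusted p = 0.753 by limma). *Scd1* measured 5.41, 5.29 and 5.55 with C44 and 4.75, 5.19 and 5.22 with 3B10. All 3 3B10 tumors were lower, by a mean of −0.37 (SE 0.17, adjusted p = 0.806). *Srebf1* measured 5.68, 5.65 and 5.56 against 5.50, 5.40 and 5.33, also without overlap (−0.22, SE 0.12, adjusted p = 0.856). These 2 were the only genes of the set with groups apart, where 11.3% of all genes tested were apart. *Srebf2* measured 6.21, 5.98 and 5.22 against 5.45, 6.49 and 6.29. *Insig1* measured 5.89, 5.28 and 5.16 against 4.94, 5.49 and 5.45. *Fasn* measured 6.47, 6.44 and 5.99 against 5.94, 6.79 and 6.49, and *Scd2* 9.15, 8.94 and 8.36 against 8.51, 8.47 and 8.66. In each of these 4 the spread within a group was larger than the difference between the groups.

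Markers of cell types were read in the 4T1 tumors, and none was called. All 9 epithelial markers tested were above 0 (median 0.61), and their summed values were 5446, 5369 and 5546 with 3B10 against 3536, 3964 and 3919 with C44, *Krt18* being the most abundant. All 11 leukocyte markers were below 0 (median −0.54), with sums of 2260, 1970 and 1489 against 2600, 2521 and 3296. The skeletal muscle genes had sums of 51.22, 205 and 284 against 15.63, 15.35 and 30.87, and 2 of the 5 tested passed the filter in each group alone. The 6 endothelial markers were below 0 (median −0.22) and 5 of 7 fibroblast genes above it. Their part in the values of the lipid genes was not tested.

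In *MMTV-PyMT* tumors the median of the set was 0.15, with 0.07 to 0.30 when 1 sample was left out, and that of all genes 0.05. *Tm7sf2* had the smallest p and measured 3.25, 3.58 and 3.62 with C44 and 3.64, 4.18 and 4.43 with 3B10, groups that just miss overlapping (0.60, SE 0.26, unadjusted p = 0.0482 and adjusted p = 1 by limma). *Ebp*, the sterol isomerase, measured 6.32, 5.92 and 6.31 against 5.73, 5.89 and 5.97 (−0.32, SE 0.16, adjusted p = 1). *Acat2* was the other gene of the set with groups apart (0.36), where 8.34% of all genes tested were apart. *Srebf1* measured 11.24, 10.99 and 10.91 with C44 and 11.22, 10.77 and 9.81 with 3B10, the last of these a low value within an overlapping group. *Srebf2* measured 7.80, 7.84 and 7.90 against 7.59, 7.84 and 7.42, and *Insig1* 5.64, 5.68 and 6.95 against 5.36, 5.79 and 6.61. *Fasn* measured 8.58, 8.61 and 9.40 against 8.49, 8.78 and 9.48. *Scd1* measured 10.20, 10.08 and 10.29 against 10.22, 9.45 and 10.68, and *Scd2* 10.09, 10.02 and 10.63 against 10.21, 10.08 and 10.87. These 6 genes overlapped between the antibodies, with replicate 3 of each antibody high for *Insig1*, *Fasn* and *Scd2*.

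Milk genes, which mark secretory alveolar epithelium, were abundant in the *MMTV-PyMT* tumors, with *Csn3* first in every sample. Their summed level was 10330, 11260 and 17110 CPM with C44 and 9392, 14640 and 10560 with 3B10. By gene, 6 of the 8 were above 0, with a median of 0.76. The 3 adipocyte markers of the table summed to 30.45, 32.67 and 19.45 CPM with C44 and 86.5, 31.1 and 30.6 with 3B10, the high sample being 3B10 replicate 1, where *Cfd* led. Of the 10 epithelial markers 3 were above 0, with a median of −0.07, and all 7 fibroblast genes were below 0, with a median of −0.18. No marker list had a call, and their part in the lipid genes was not tested. The other lipid lists had no call in either tumor model, with *Abca1* at −0.76 in 4T1 (adjusted p = 0.722 by limma) and 0.06 in *MMTV-PyMT*.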

How the data were processed

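The log2 values were used as deposited: per the authors, reads were aligned to mm10 with HISAT2, assembled with StringTie and counted with featureCounts, and limma and edgeR followed. 18 samples held log2 CPM from whole reads (tolerance 0.01), and the 4T1 samples another scale, and the step that gave each scale is not named. Because the unit is log2, limma 3.58.1 (R 4.3.3; lmFit, eBayes with trend and robust) was fitted per experiment over genes that, back-transformed and less the minimum of the library, reached 1 in 3 or more samples, with Benjamini-Hochberg adjustment over all of them. Reads recovered from the values were also fitted with voom weights. Other alternatives were no filter, a stricter one, no robust option, a pseudocount of 1, other scalings, a replicate block, leaving out each sample, and, chosen after seeing the data, removing each sample's linear trend on log2 exon length. Transcript copies were found with blastn 2.17.0 at 95% identity in GENCODE M21 (GRCm38), and figures were drawn with matplotlib 3.10.9 in Python 3.11.15. The members and lists were chosen with earlier results of these data known. Named are the members with the smallest adjusted p, up to 4 in each direction of a comparison, or the 2 with the smallest p where none was called, with *Srebf1*, *Srebf2*, *Insig1*, *Fasn*, *Scd1* and *Scd2* in every experiment, up to 3 genes of each further list, *Abca1* and *Ptn*. Some further genes, and the counts of lists that hold them, are not reported. Further genes were named after their values were seen. The study states 3 biological replicates, and the labels do not state whether those of the cells were separate cultures, so p-values measure the spread between these samples.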

Additional observations from a re-analysis of the deposited data

Results flagged for a closer look

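The effect of shPTN on log2 values differed between E0771-LG and E0771 cells at an adjusted p under 0.05 (limma) for 22 of 33 genes (66.7%), against 34% of all 10600 genes tested. It was more negative in E0771-LG for *Acly* (−1.63), *Idi1* (−2.17), *Stard4* (−1.41), *Elovl6* (−1.46), *Fasn* (−1.90), *Hsd17b7* (−1.49), *Acaca* (−1.29), *Sqle* (−0.77), *Cyp51* (−0.99), *Insig1* (−0.78), *Acat2* (−0.99), *Lss* (−0.84), *Srebf2* (−0.68), *Sc5d* (−0.53), *Scd1* (−1.25), *Fads2* (−0.89), *Msmo1* (−0.70), *Fads1* (−0.56), *Elovl5* (−0.50), *Scap* (−0.47) and *Dhcr7* (−0.52). For *Pmvk* it was more positive (1.34). Why the lines differ was not tested: a single shRNA construct and a selected population per line cannot be told apart from the line itself.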

How the results depend on the processing

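Of 3226 values of single genes under alternatives, 3090 kept their side of the threshold, 103 were weaker, 33 stronger and 0 reversed. Of the 3090, 1867 were not called in either, and 115 of these had another sign.

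Without the filter, 1 gene was called lower in E0771 and 1 higher in E0771-LG, and the fit of the 12 cell samples also gave 1 lower in E0771. For E0771-LG against E0771, median-of-ratios scaling called 14 higher, with a median of 0.153, and quantile normalization gave a median of 0.130. It also gave 15 calls in E0771-LG (13 lower) and called 2 differences between the lines higher. With the trend on exon length removed, chosen after the data were seen, 1 gene was called higher in E0771-LG and 2 differences between the lines were. The cause was not tested.

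With the replicate block 16, 20, 19 and 22 genes were called in E0771, in E0771-LG, between the lines and for the difference, and 0 in the tumors, *Fasn* being lost and *Nsdhl* gained in E0771. The labels do not state whether samples of the same number share more than that number. Their deviations correlated across genes at r from −0.117 to 0.243 in the cells and from −0.327 to 0.436 in the tumors, and genes are not independent replicates.

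Leaving out each sample in turn gave 9 to 18 called in E0771 (8 to 16 higher, 1 to 2 lower), 13 to 18 in E0771-LG (0 to 3 higher), 13 to 19 between the lines (6 to 11 higher, 7 to 11 lower), 21 to 22 differences (1 to 2 higher) and 0 in the tumors, where the medians ran from −0.0210 to 0.227 in 4T1 and from 0.0661 to 0.302 in *MMTV-PyMT*. The cause was not tested. The depth of the 4T1 samples is unknown, and genes with few reads, such as *Fdps* and *Tm7sf2*, had wide intervals.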
